A study of Caenorhabditis elegans with 11 samples.

Results

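The nuclear genes of the mitochondrial respiratory chain were followed in early embryos of 4 Caenorhabditis elegans strains. They were taken by gene symbol, as every row of the count table whose name begins with nuo-, nduf-, sdha-, sdhb-, sdhd-, ucr-, isp-, cyc-, cox-, asb-, asg- or atp-, with the mitochondrially encoded *atp-6* left out. This gave 48 of the 46772 identifiers in the table, all of them protein-coding: 12 of complex I, 4 of complex II, 7 of complex III, 2 for cytochrome c, 7 structural subunits of complex IV, 7 assembly factors of complex IV and 9 of the ATP synthase. The rule used names only and no expression value, though the genes were chosen with earlier results of these data known. It does not reach every nuclear respiratory chain gene, since some carry other names, and these are described in a later paragraph.

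Polyadenylated RNA was sequenced with a protocol that keeps the strand, from wild-type embryos (3 libraries) and from the mutant strains *cfp-1(tm6369)* (3 libraries), *set-2(bn129)* (3 libraries) and *sin-3(tm1276)* (2 libraries). CFP-1 is the CXXC zinc finger subunit and SET-2 the methyltransferase of the SET1 complex that places H3K4 methylation at promoters, and SIN-3 is the scaffold of a histone deacetylase complex. The comparisons ask which transcripts differ when any of these regulators of promoter chromatin is impaired. Early embryos were collected by bleaching young adults and no other treatment is named, and a change in the mix of stages or cells and a change in RNA per cell cannot be told apart in these bulk libraries.

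In the respiratory chain, complex I takes electrons from NADH and complex II takes them from succinate, and both pass them through ubiquinone to complex III. Cytochrome c carries them on to complex IV, which reduces oxygen, and the ATP synthase uses the proton gradient built by complexes I, III and IV to make ATP. Complex II is also an enzyme of the tricarboxylic acid cycle and has no mitochondrially encoded subunit, whereas complexes I, III and IV and the ATP synthase join nuclear with mitochondrial gene products. Early worm embryos develop largely on RNA and mitochondria that the mother placed in the oocyte.

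The libraries held 21596949 to 35258557 counts (median 28788111). Each mutated gene had fewer counts in its own strain, with log2 fold changes of -1.56 for *cfp-1*, -1.53 for *set-2* and -1.17 for *sin-3* against wild-type (edgeR quasi-likelihood test, Benjamini-Hochberg adjusted p = 2.88e-05, 0.000901 and 0.000721). Some libraries stood apart. In *set-2* replicate 2 the *set-2* gene itself kept 4504 normalized counts, against 2437 and 2499 in the other *set-2* libraries and 7932 to 9720 in wild-type. Wild-type replicate 1 had the lowest wild-type normalized count for 40 of the 48 genes, against 40.4% of all genes tested, and wild-type replicate 2 had the highest for 37 of the 48, against 35.9%. In wild-type replicate 1 the 6 markers of differentiated body wall muscle summed to 66.4 counts per 1000000 (CPM), against 16.3 and 24.7 in the other wild-type libraries. In *set-2* replicate 2 they summed to 145.5, against 57.3 and 43.1 in the other *set-2* libraries. Replicate 2 of *cfp-1* stood at 62.2, against 32.7 and 21.1, and replicate 2 of *sin-3* at 42.7, against 21.1. Markers of oocytes and early embryos, of which 11 of 13 were tested, were higher for 7 genes in *cfp-1*, for 0 in *set-2* but for 10 in *sin-3*. Of 13 embryonic transcription factors, 7 were lower in *cfp-1*, 0 in *set-2* but 7 in *sin-3*, and 1 was higher in *sin-3*. The part of these differences in the results was not tested, and the main counts against wild-type are also given without wild-type replicate 1.

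The 48 genes spanned a wide range of expression. Levels are given as counts per exon length, scaled so that protein-coding genes sum to 1000000 in every library, and in wild-type they ran from 3.03 ± 1.65 (SD, n = 3) for *cyc-2.2* to 2262 ± 245 for *cyc-2.1*, with a median of 274 over the 48 genes. Of the 48, 5 lay above 1000, 32 between 100 and 1000, and 11 below 100. Thus the 2 cytochrome c genes, which encode the same kind of electron carrier, stood at opposite ends of the range. The other genes above 1000 were *cox-6B* (1320 ± 148), *atp-2* (1248 ± 130), *atp-3* (1132 ± 94.5) and *cox-5A* (1092 ± 113). In each wild-type library *cox-6B* and *atp-2* lay above *atp-3*, and *atp-3* above *cox-5A*, whereas *cox-6B* and *atp-2* changed places between libraries.

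Levels also separated by role. Structural subunits of complex IV ran from 234 (*cox-6C*) to *cox-6B* at the top, with a median of 512, and ATP synthase subunits from 220 (*asb-2*) to *atp-2*, with a median of 672. The assembly factors of complex IV, which act in heme synthesis, copper delivery or the building of the core but are not part of the finished enzyme, lay lower, with a median of 52.7. Their top pair was *cox-14* (142 ± 8.98) and *cox-19* (86.3 ± 12.4), and the lowest was *cox-10* (9.68 ± 2.16), the heme O synthase. Complex I ran from 95.2 ± 3.60 for *nuo-5*, the large iron-sulfur subunit of the electron entry arm, to 511 ± 79.4 for *nuo-6*, followed by *nuo-1* (464 ± 31.9), the flavoprotein that binds NADH. In complex III the Rieske iron-sulfur protein *isp-1* (554 ± 26.5) and cytochrome c1, *cyc-1* (377 ± 22.1), were at the top and the core protein *ucr-2.2* (23.2 ± 1.51) at the bottom. In complex II the membrane anchor *sdhd-1* (239 ± 13.04) and the iron-sulfur subunit *sdhb-1* (133 ± 3.08) lay above both genes of the flavoprotein, *sdha-2* (50.4 ± 2.39) and *sdha-1* (37.8 ± 3.88). The counting of *nuo-3* and *cox-14* is uncertain, because 72.6% and 75.7% of their exon length is shared with other gene models of the current annotation that the count table does not list.

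**Figure D1:**
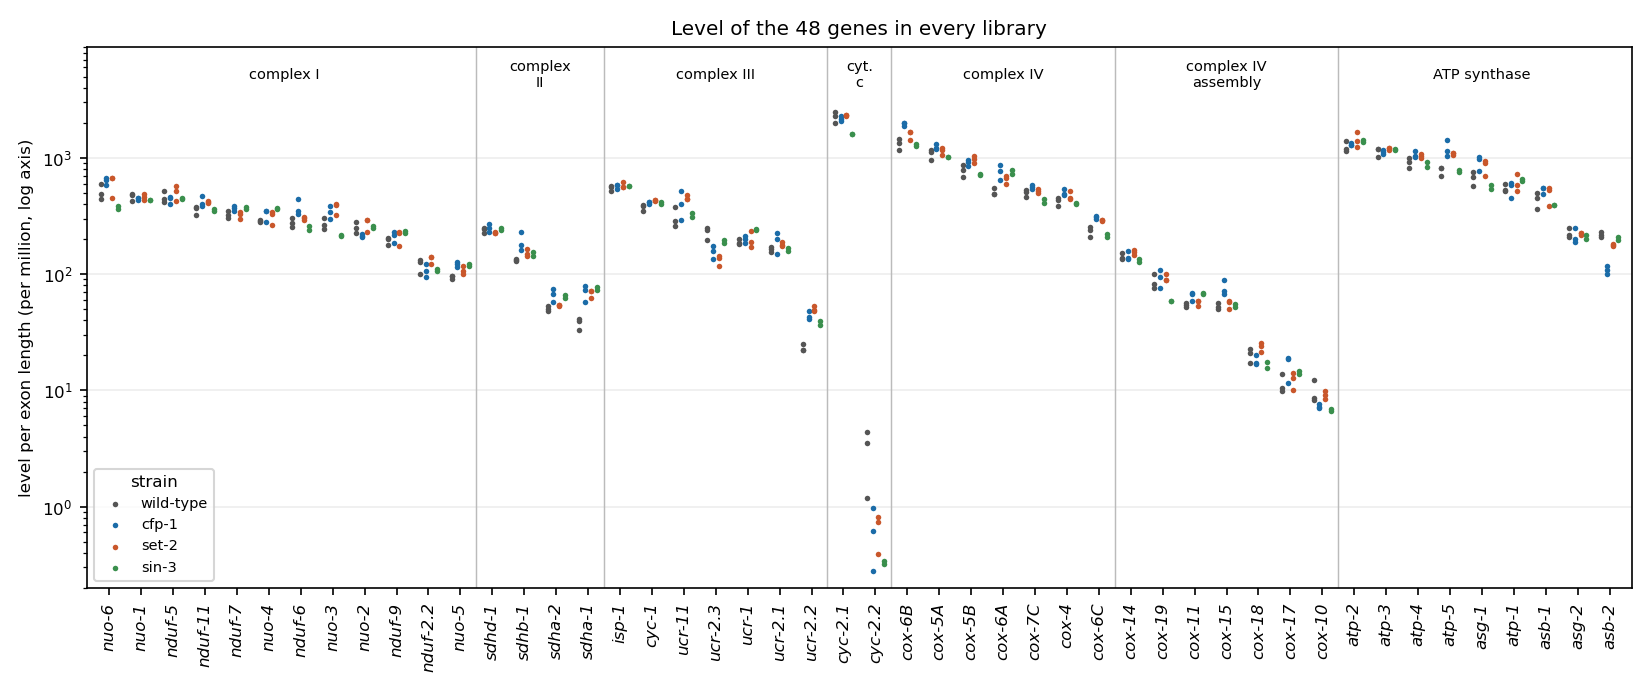
Level per exon length (of a total of 1000000 over protein-coding genes, log axis) of each of the 48 genes, grouped by complex and ordered by wild-type level, with 1 point per library and colours for the 4 strains. Wild-type means run from 3.03 for *cyc-2.2* to 2262 for *cyc-2.1*, and the wild-type points of *ucr-2.2* and *sdha-1* lie below those of every mutant.

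A gene was called where edgeR's quasi-likelihood test gave a Benjamini-Hochberg adjusted p under 0.05 over all genes tested, and every adjusted p given for a gene is of that kind. Differences between strains in a gene's counts are on the log2 scale, ± SE of the fit. In *cfp-1* embryos, 11 of the 48 genes were higher and 3 were lower than in wild-type. The genes that rose lay in complex II (*sdha-1*, *sdha-2*, *sdhb-1*), complex IV (*cox-6A*, *cox-6B*, *cox-6C*) and its assembly (*cox-15*), with single or few genes of complex I (*nuo-5*, *nduf-6*), complex III (*ucr-2.2*) and the ATP synthase (*atp-5*). The genes that fell were *cyc-2.2*, *asb-2* and *ucr-2.3*. Across all 11547 genes tested, 12.7% were higher and 11.4% lower, so the 22.9% of the 48 that rose exceeded the background share and the 6.25% that fell did not. The median log2 fold change of the 48 was 0.18, beside -0.00 over all genes tested, and 35 of the 48 had a value above 0 (49.8% of all genes tested). For 12 genes all *cfp-1* libraries lay above all wild-type libraries and for 4 below (19.6% and 20.7% of all genes tested). Without wild-type replicate 1 the counts were 7 higher and 3 lower and the median 0.10, the lost calls being *nduf-6*, *sdha-2*, *sdhb-1* and *cox-6C*. Without *cfp-1* replicate 3 they were 7 and 2, and without wild-type replicate 2 they were 11 and 1. No share of all genes tested is given beside these counts, or beside later counts with a library left out. The excess over the background is therefore shown only for the fit with every library. Calls lost with a library left out are not shown to be particular to the 48 genes.

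In *set-2* embryos, 2 of the 48 genes rose, *sdha-1* and *ucr-2.2*, and 3 fell, *ucr-2.3*, *cyc-2.2* and *asb-2*. The higher share, 4.17%, was below that of all genes tested (7.40%), and the lower share, 6.25%, was near it (7.04%). Both rest on few genes. No gene of complex I or complex IV was called. Log2 fold changes were above 0 for 31 of the 48 (47.6% of all genes tested), and the libraries did not overlap for 4 genes above and 3 below wild-type (16.1% and 19.1% of all genes tested). The median log2 fold change of the 48 was 0.04, beside -0.02 over all genes tested, and it was -0.04 without wild-type replicate 1, where the counts stayed at 2 and 3. Without wild-type replicate 2, wild-type replicate 3 or *set-2* replicate 1 only *ucr-2.3* of the lower genes was still called. Without *set-2* replicate 2, the library with most muscle marker RNA, 3 genes were higher and 3 lower.

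In *sin-3* embryos, 3 of the 48 genes rose, *sdha-1*, *ucr-2.2* and *cox-6A*, and 4 fell, both cytochrome c genes (*cyc-2.1*, *cyc-2.2*) and the assembly factors *cox-10* and *cox-19*. These shares, 6.25% and 8.33%, were below the background, where 12.6% of all genes tested were higher and 12.6% lower, and they too rest on few genes. The median log2 fold change of the 48 was -0.08, beside -0.03 over all genes tested, and -0.19 without wild-type replicate 1. Only 16 of the 48 had a value above 0 (47.5% of all genes tested), and the libraries did not overlap for 10 genes above and 7 below wild-type (30.1% and 30.7% of all genes tested, with 2 libraries in the mutant group). With either *sin-3* library left out, 2 genes were called higher, *sdha-1* and *ucr-2.2*, and 0 were called lower, so every lower call was lost with 1 *sin-3* library. Without wild-type replicate 1, 2 genes were higher and 5 lower. Without wild-type replicate 2 the counts were 3 and 2, and without wild-type replicate 3 they were 2 and 4. Without *cfp-1* replicate 1 they were 5 and 4, and without *set-2* replicate 2 they were 4 and 6. How the calls over all genes tested changed with a library left out is not given. At an unadjusted p under 0.05, 19 of the 48 genes passed in *cfp-1*, 8 in *set-2* but 13 in *sin-3*, beside 37.8%, 32.3% and 38.4% of all genes tested, so these counts are near the background in *cfp-1* and below it in the others.

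**Figure D2:**
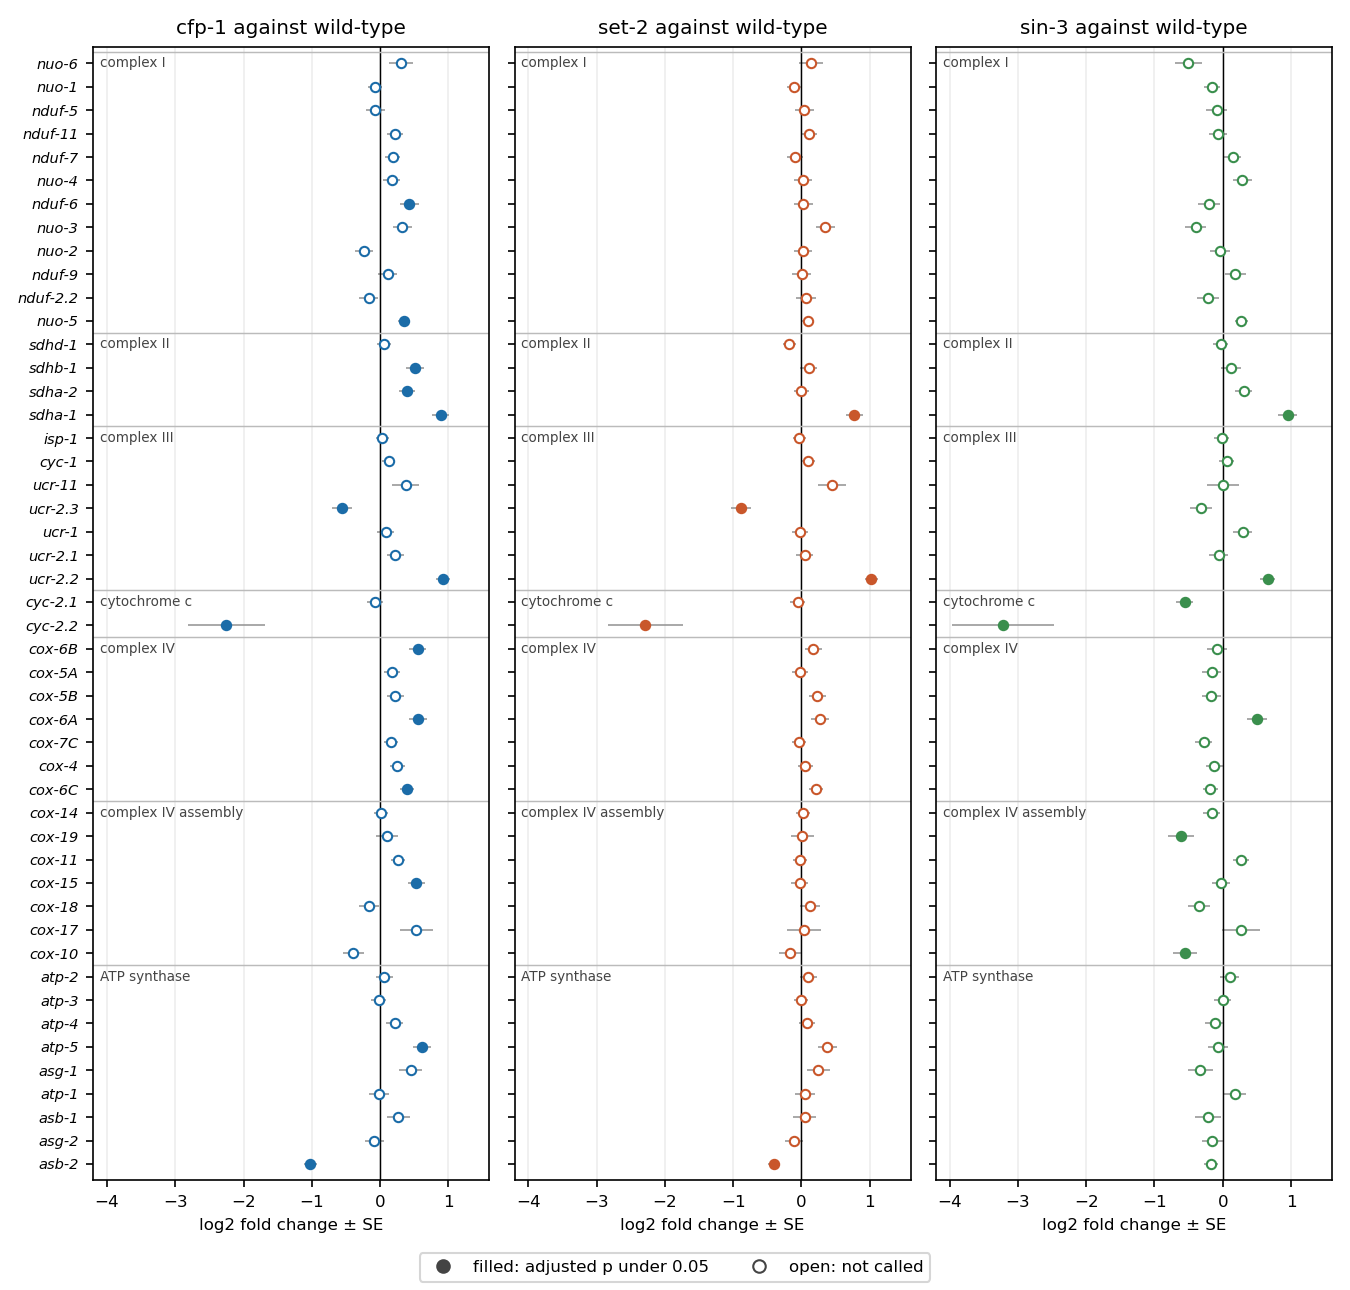
Log2 fold change against wild-type (x axis, ± SE) of the 48 genes, grouped by complex, in each mutant, with filled points for an adjusted p under 0.05 in edgeR's quasi-likelihood test. Of the 48 genes, 14 are filled in *cfp-1*, 5 in *set-2* but 7 in *sin-3*, and *sdha-1*, *ucr-2.2* and *cyc-2.2* are filled in all 3 panels.

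Altogether 31 of the 48 genes were called in no mutant, 11 in 1 mutant, 3 in 2 and 3 in all 3, or 64.6%, 22.9%, 6.25% and 6.25%, beside 56.7%, 26.8%, 12.8% and 3.74% of all genes tested. Since all 3 contrasts share the wild-type libraries, they are not independent. The 3 genes called throughout were *sdha-1* and *ucr-2.2*, higher in each mutant, and *cyc-2.2*, lower in each. Each of them has a paralog with a higher wild-type level.

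The flavoprotein gene *sdha-1* (WBGene00015391, X:8542757-8546021, reverse strand, WBcel235) encodes the subunit of complex II that oxidises succinate. Its normalized counts were 1757, 1667 and 1969 for wild-type, 2748, 3697 and 3545 for *cfp-1*, 2772, 3186 and 3247 for *set-2* and 3395 and 3555 for *sin-3*. Every mutant library lay above every wild-type library. The log2 fold changes were 0.89 ± 0.12 (SE) for *cfp-1*, 0.77 ± 0.12 for *set-2* and 0.95 ± 0.14 for *sin-3* (adjusted p = 0.000636, 0.00272 and 0.00086), or 1.85-fold, 1.71-fold and 1.93-fold.

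Its paralog *sdha-2* gave 1832, 2124 and 2173 for wild-type, 2324, 2670 and 3060 for *cfp-1*, 2019, 2008 and 2097 for *set-2* and 2627 and 2422 for *sin-3*. Only the change in *cfp-1* passed, at 0.39 ± 0.11 (adjusted p = 0.0252), and it missed the threshold without wild-type replicate 1 or *cfp-1* replicate 3. The *sin-3* libraries also lay above the wild-type range, with a log2 fold change of 0.31 ± 0.12 that did not pass (adjusted p = 0.0937). Direct comparison of *cfp-1* with *set-2* gave 0.39 ± 0.11 for this gene (adjusted p = 0.0282).

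The iron-sulfur subunit gene *sdhb-1*, whose product passes electrons from the flavoprotein to ubiquinone, had 2537, 2927 and 2867 normalized counts in wild-type and 4812, 3276 and 3818 in *cfp-1*. The *cfp-1* libraries lay above the wild-type libraries but spread widely, and the log2 fold change was 0.52 ± 0.13 (adjusted p = 0.0152). The values in *set-2* (2791, 3205 and 2957) and *sin-3* (3130 and 2883) overlapped wild-type. The membrane anchor gene *sdhd-1* was called in no mutant, with log2 fold changes of 0.06 ± 0.10 for *cfp-1*, -0.18 ± 0.10 for *set-2* and -0.03 ± 0.11 for *sin-3*. Summed per length, the 4 complex II genes stood at 460 ± 18.5 for wild-type, 577 ± 22.2 for *cfp-1*, 501 ± 14.4 for *set-2* and 533 ± 0.981 for *sin-3*. On the normalized count scale of the tests, the summed values of *cfp-1* and *sin-3* lay above all wild-type libraries and those of *set-2* overlapped them.

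In complex III, *ucr-2.2* (WBGene00011679, X:15173904-15178145, forward strand, WBcel235), 1 of 3 genes for core protein 2, was called in every mutant. Its normalized counts were 671, 671 and 647 for wild-type, 1175, 1336 and 1257 for *cfp-1*, 1309, 1409 and 1322 for *set-2* and 1008 and 1082 for *sin-3*. All mutant libraries lay well clear of wild-type. The log2 fold changes were 0.92 ± 0.10, 1.02 ± 0.10 and 0.66 ± 0.11 (adjusted p = 0.000102, 8.19e-05 and 0.00165). The *set-2* libraries were also higher than the *sin-3* libraries, by 0.37 ± 0.11 (adjusted p = 0.0189).

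The core protein 2 gene with the highest wild-type level, *ucr-2.3*, moved the other way. Its normalized counts were 5000, 6744 and 6734 for wild-type, 4707, 3545 and 4327 for *cfp-1*, 3417, 2928 and 3686 for *set-2* and 4819 and 5053 for *sin-3*. It fell by 0.55 ± 0.14 on the log2 scale in *cfp-1* and by 0.88 ± 0.14 in *set-2* (adjusted p = 0.016 and 0.00306), while the *sin-3* value of -0.32 ± 0.16 did not pass (adjusted p = 0.165). The log2 fold change of *set-2* against *sin-3* was -0.56 ± 0.16 (adjusted p = 0.0158), a call lost when either *sin-3* library was left out, and that of *cfp-1* against *set-2*, 0.33 ± 0.14, did not pass (adjusted p = 0.117). The *cfp-1* call was lost without wild-type replicate 2 or 3 or *cfp-1* replicate 2. The remaining complex III genes were called in no mutant, and their largest log2 fold change was 0.45 ± 0.20, for *ucr-11* in *set-2*.

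Of the cytochrome c genes, *cyc-2.1* carried over 99% of the level in every library. Its normalized counts were 20504, 28442 and 25388 for wild-type, 25019, 22779 and 22926 for *cfp-1*, 23550, 23802 and 24172 for *set-2* and 16987 and 16654 for *sin-3*. The *sin-3* libraries lay below all others, with a log2 fold change of -0.56 ± 0.13 (adjusted p = 0.00975). The same gene was higher in *cfp-1* than in *sin-3* by 0.49 ± 0.13 and in *set-2* than in *sin-3* by 0.50 ± 0.13 (adjusted p = 0.0328 and 0.0103). All 3 of these calls were lost when either *sin-3* library was left out. The ratio of *cyc-2.1* to the cytochrome c1 gene *cyc-1*, per length, was 5.99 ± 0.342 for wild-type, 5.25 ± 0.209 for *cfp-1*, 5.40 ± 0.0352 for *set-2* and 3.92 ± 0.105 for *sin-3*.

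The second cytochrome c gene, *cyc-2.2* (WBGene00013854, V:12611682-12612218, reverse strand, WBcel235), was close to the limit of detection. Its raw counts were 9, 42 and 30 for wild-type, 9, 2 and 5 for *cfp-1*, 7, 3 and 9 for *set-2* and 2 and 3 for *sin-3*. Wild-type replicate 1 was nearly as low as the highest mutant library, at normalized counts of 9.64 against 8.44. The fitted log2 fold changes were -2.25 ± 0.56, -2.28 ± 0.54 and -3.22 ± 0.74 (adjusted p = 0.0137, 0.0174 and 0.00945). From summed counts the ratio to wild-type was 0.206 in *cfp-1* (95% exact interval 0.113 to 0.356), 0.201 in *set-2* (0.115 to 0.335) and 0.102 in *sin-3* (0.0321 to 0.247), intervals that cover counting error only. The *cfp-1* call was lost without wild-type replicate 2 or *cfp-1* replicate 3, the *set-2* call without wild-type replicate 2 or 3 or *set-2* replicate 1, and the *sin-3* call without either *sin-3* library.

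Sperm markers moved with *cyc-2.2*. The 33 genes of that list, the msp genes with *gsp-3* and *gsp-4*, summed to 3.05, 5.50 and 5.78 CPM in wild-type replicates 1, 2 and 3, and from 0.861 to 1.82 CPM in *cfp-1*, 0.946 to 1.17 for *set-2* and 0.543 to 0.889 for *sin-3*, and 20 of the 33 had at most 3 counts in every library. Wild-type replicate 1 was the lowest wild-type library for both. The part of sperm RNA in the *cyc-2.2* values was not tested.

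**Figure D3:**
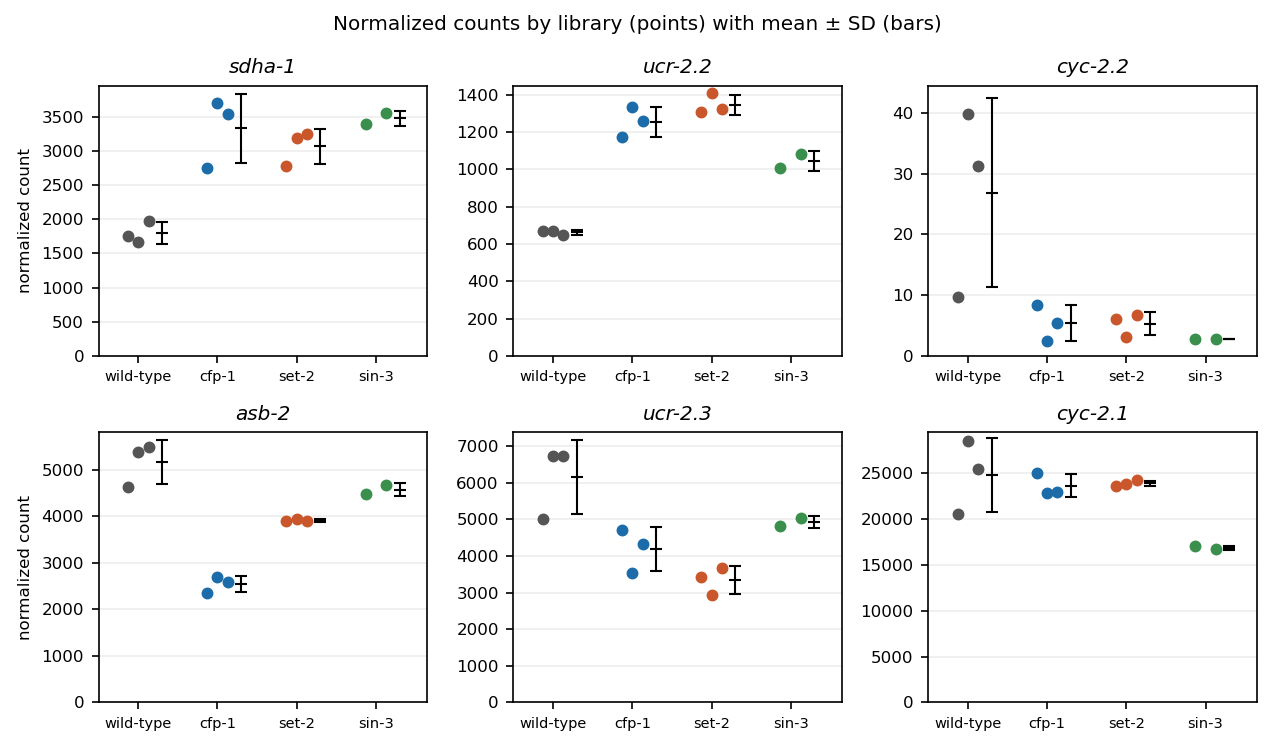
Normalized counts (y axis, from 0) of 6 respiratory chain genes in embryos of each strain, with 1 point per library and bars for mean ± SD. For *sdha-1* and *ucr-2.2* all mutant libraries lie above wild-type, for *cyc-2.2* below it, and for *asb-2* the *cfp-1* libraries (2344 to 2688) lie below all others.

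Of the 7 structural subunits of complex IV, which are small proteins around the mitochondrially encoded catalytic core, 3 rose in *cfp-1* and all 7 had a log2 fold change above 0, from 0.16 to 0.56. Over all genes tested, 12.7% were higher in *cfp-1* and 49.8% had a value above 0. The *cox-6B* gene, the highest of the complex, had normalized counts of 12388, 17310 and 15495 for wild-type, 22403, 20791 and 23022 for *cfp-1*, 17759, 15058 and 18203 for *set-2* and 14557 and 13864 for *sin-3*. The *cfp-1* libraries lay above all others, at 0.55 ± 0.13 against wild-type (adjusted p = 0.00895) and 0.64 ± 0.14 against *sin-3* (adjusted p = 0.0168), and the difference from *set-2*, 0.38 ± 0.13, did not pass (adjusted p = 0.0508).

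The *cox-6A* gene was the only complex IV gene called in a mutant other than *cfp-1*. It had 4921, 6160 and 5315 normalized counts in wild-type, 9181, 6691 and 8322 for *cfp-1*, 6902, 5898 and 6903 for *set-2* and 8199 and 7351 for *sin-3*. It rose by 0.56 ± 0.13 in *cfp-1* and 0.51 ± 0.15 in *sin-3* (adjusted p = 0.0103 and 0.025), and the *set-2* value was 0.27 ± 0.13 (adjusted p = 0.188). The *sin-3* call was lost without wild-type replicate 1 or 3 or either *sin-3* library. For *cox-6C* the counts were 1776, 2117 and 1685 in wild-type and 2457, 2314 and 2558 in *cfp-1*, a log2 fold change of 0.39 ± 0.10 (adjusted p = 0.0162). The highly expressed *cox-5A* was called in no mutant, with 0.17 ± 0.12 for *cfp-1*, -0.02 ± 0.12 for *set-2* and -0.16 ± 0.13 for *sin-3*.

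Among the assembly factors, *cox-15*, the heme A synthase, rose in *cfp-1* only. Its normalized counts were 1297, 1400 and 1527 for wild-type, 2346, 1770 and 1968 for *cfp-1*, 1238, 1448 and 1468 for *set-2* and 1444 and 1325 for *sin-3*. The *cfp-1* libraries lay above those of every other strain, and the difference passed against wild-type (0.53 ± 0.12, adjusted p = 0.00993), *set-2* (0.55 ± 0.12, adjusted p = 0.0104) and *sin-3* (0.55 ± 0.14, adjusted p = 0.0266). The heme O synthase *cox-10*, which acts just before it, had 357, 272 and 271 for wild-type, 225, 233 and 227 for *cfp-1*, 264, 284 and 253 for *set-2* and 200 and 207 for *sin-3*. It fell in *sin-3*, by 0.56 ± 0.18 (adjusted p = 0.0381), while the *cfp-1* value of -0.39 ± 0.16 did not pass (adjusted p = 0.0863). The copper chaperone gene *cox-19* had 619, 836 and 615 in wild-type and 459 and 443 in *sin-3*, a log2 fold change of -0.61 ± 0.19 (adjusted p = 0.0316). The *cox-10* call held in 11 of 21 alternative analyses and the *cox-19* call in 17 of 21.

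In the ATP synthase, *asb-2* (WBGene00000207, X:4469766-4471476, forward strand, WBcel235), 1 of 2 genes for the b subunit of the stalk, had the smallest adjusted p of the 48 genes in *cfp-1*. Its normalized counts were 4631, 5388 and 5489 for wild-type, 2344, 2688 and 2588 for *cfp-1*, 3895, 3946 and 3899 for *set-2* and 4471 and 4683 for *sin-3*. The *cfp-1* libraries fell far below the other strains, with the *set-2* libraries in between. The log2 fold change was -1.03 ± 0.10 in *cfp-1* (0.491-fold, adjusted p = 5.09e-05), -0.40 ± 0.09 in *set-2* (0.757-fold, adjusted p = 0.0162) and -0.18 ± 0.11 in *sin-3* (adjusted p = 0.244). Direct tests gave -0.62 ± 0.09 for *cfp-1* against *set-2* and -0.85 ± 0.10 for *cfp-1* against *sin-3* (adjusted p = 0.00188 and 0.000895). Both, and the *cfp-1* call against wild-type, held with any library left out, whereas the *set-2* call was lost without wild-type replicate 2 or 3 or *set-2* replicate 1.

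The *atp-5* gene, which encodes the d subunit of the same stalk, had 10308, 13610 and 12978 normalized counts in wild-type, 22233, 15944 and 18380 for *cfp-1*, 15562, 15938 and 16537 for *set-2* and 12140 and 11306 for *sin-3*. It rose in *cfp-1* by 0.62 ± 0.13 (adjusted p = 0.00713). All *set-2* libraries lay above wild-type too, but the difference of 0.38 ± 0.13 did not pass (adjusted p = 0.0756). Neither *atp-1* nor *atp-2*, the genes of the catalytic head, was called. For *atp-2*, the beta subunit, log2 fold changes were 0.06 ± 0.12, 0.10 ± 0.12 and 0.11 ± 0.14 in the mutants, in the order *cfp-1*, *set-2*, *sin-3*, and for *atp-3*, the oligomycin-sensitivity subunit, they were -0.02 ± 0.11, -0.01 ± 0.11 and -0.00 ± 0.12. The ratio of *atp-2* to the alpha subunit gene *atp-1*, per length, was 2.26 ± 0.0681 in wild-type and 2.44 ± 0.460 in *cfp-1*, where replicate 1 stood at 2.97 and the others at 2.14 and 2.201.

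Of the 12 complex I genes, 2 were called in *cfp-1*, both higher, and 0 in *set-2* or *sin-3*. Over all genes tested, 12.7% were higher and 11.4% lower in *cfp-1*. These shares were 7.40% and 7.04% in *set-2*, and 12.6% in each direction in *sin-3*. The *nuo-5* gene had 4434, 4630 and 4789 normalized counts in wild-type, 5594, 6043 and 6076 for *cfp-1*, 4567, 5241 and 4943 for *set-2* and 5513 and 5653 for *sin-3*. It rose in *cfp-1* by 0.35 ± 0.09 (adjusted p = 0.0134), and the *sin-3* libraries lay above wild-type with 0.27 ± 0.10 (adjusted p = 0.0583). For *nduf-6*, a subunit of the same arm, the counts were 2504, 3318 and 2928 in wild-type and 3644, 3347 and 4753 in *cfp-1*, or 0.42 ± 0.14 (adjusted p = 0.043), a call that held in 11 of 21 alternative analyses. The highest complex I genes, *nuo-6* and *nuo-1*, were not called against wild-type, at 0.30 ± 0.17 and -0.07 ± 0.11 for *cfp-1*, 0.13 ± 0.17 and -0.10 ± 0.11 for *set-2* and -0.51 ± 0.20 and -0.15 ± 0.12 for *sin-3*.

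The balance within sets of paralogs was described by shares in each strain, with no test. The share of the summed level per length held by *asb-2*, against *asb-1*, was 33.6 ± 3.00% for wild-type, 17.02 ± 2.15% for *cfp-1*, 27.2 ± 4.26% for *set-2* and 33.8 ± 1.12% for *sin-3*. The *cfp-1* libraries (15.3% to 19.4%) lay below the wild-type libraries (30.5% to 36.4%), and those of *set-2* and *sin-3* overlapped them. The *asb-1* gene itself was not called in any mutant (0.27 ± 0.17 in *cfp-1*, adjusted p = 0.264). For the g subunit, *asg-2* held 25.1 ± 1.33% for wild-type, 18.8 ± 2.802% for *cfp-1*, 21.0 ± 2.97% for *set-2* and 27.4 ± 0.0245% for *sin-3*. Here the *cfp-1* libraries lay below wild-type, those of *set-2* overlapped it and those of *sin-3* lay above it. Neither *asg-1* nor *asg-2* was called against wild-type.

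The share of *sdha-1*, against *sdha-2*, was 42.8 ± 2.52% for wild-type, 51.2 ± 2.43% for *cfp-1*, 56.0 ± 1.91% for *set-2* and 53.9 ± 2.23% for *sin-3*, so every mutant library lay above the wild-type range of 40.0% to 44.8%. In the core protein 2 set, *ucr-2.2* held 5.62 ± 0.715% in wild-type and 11.2 ± 0.528%, 13.8 ± 0.854% and 9.68 ± 0.171% in the mutants, in the order *cfp-1*, *set-2*, *sin-3*, while *ucr-2.3* held 54.8 ± 3.37% in wild-type and 40.1 ± 7.40%, 36.4 ± 3.33% and 48.7 ± 0.0557% in the mutants. The third gene, *ucr-2.1*, was not called in any mutant. These shares are descriptions, with no test. The asb, asg, sdha and *ucr-2* sets each hold genes of the X chromosome (*asb-2*, *asg-2*, *sdha-1*, *ucr-2.1*, *ucr-2.2*) beside autosomal ones, and these 5 are the only ones of the 48 on X. Of the 5, 2 were higher and 1 lower in *cfp-1*, beside 11.7% and 7.87% of all X genes tested, and the same counts were found in *set-2*, beside 13.4% and 5.29%, whereas 2 were higher in *sin-3*, beside 9.54%. Reads that map equally well to near-identical paralogs would have been removed by the filter on mapping score, and how many were lost was not measured.

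**Figure D4:**
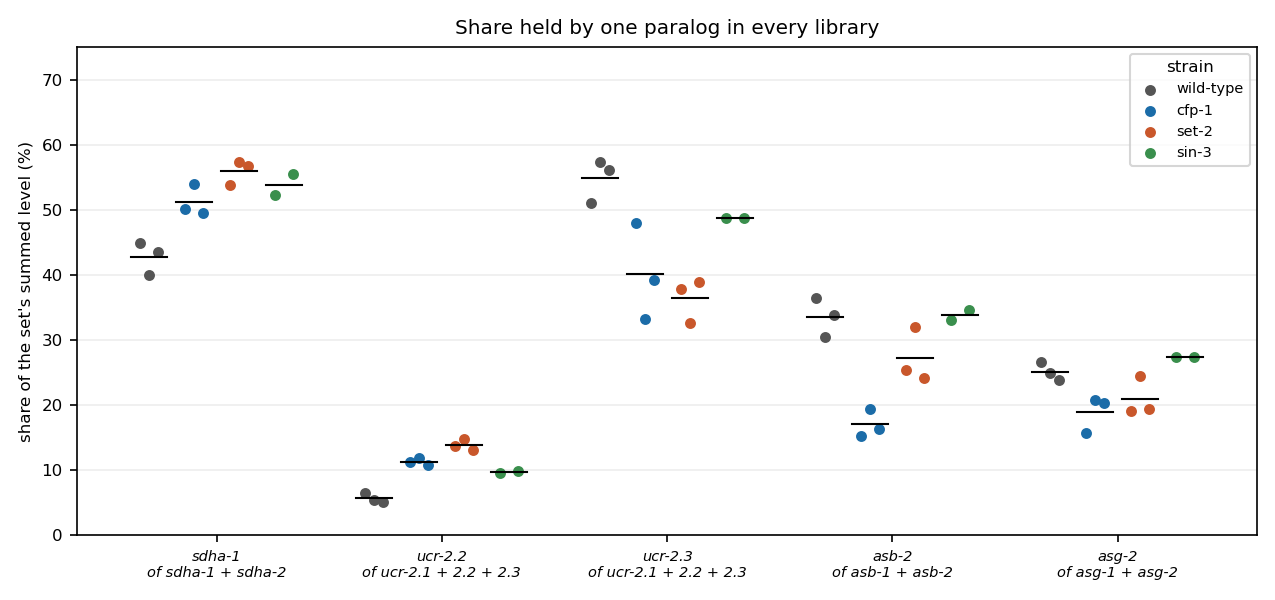
Share (%, y axis from 0) of the summed level per exon length held by 1 gene of a paralog set, with 1 point per library and a line at the mean of each strain. The mean *asb-2* share is 33.6% in wild-type and 17.02% in *cfp-1*, and every mutant library has a higher *ucr-2.2* and *sdha-1* share than any wild-type library.

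Summed over the 48 genes, the level per length was 19600 ± 1638 of 1000000 for wild-type, 22402 ± 903 for *cfp-1*, 22074 ± 523 for *set-2* and 19027 ± 268 for *sin-3*. On this scale the 3 *cfp-1* libraries (21407 to 23171) and the 3 *set-2* libraries (21493 to 22506) lay above the wild-type libraries (17789 to 20979), and the *sin-3* libraries lay within them. This separation depends on the scaling. In normalized counts per kilobase, the scale of the tests, the sums ran from 331918 to 436745 in wild-type, and from 414900 to 458898 in *cfp-1*, 394636.5 to 428140 for *set-2* and 357215 to 371378 for *sin-3*, so every mutant overlapped wild-type.

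By complex, complex IV stood at 4854 ± 452 in wild-type and 6228 ± 329 in *cfp-1*, and the *cfp-1* libraries lay above wild-type on both scales. For *set-2*, complexes II, III and IV, the assembly factors and the ATP synthase all lay above wild-type when scaled to 1000000. The ranges were 5326 to 5889 against at most 5282 for complex IV, and 6833 to 7279 against at most 6505 for the ATP synthase. In normalized counts each of these groups overlapped wild-type in *set-2*. The ATP synthase in *cfp-1* also overlapped it in normalized counts (7024 ± 322 against 6182 ± 527 when scaled to 1000000). Complex I stood at 3619 ± 321 in wild-type, 4006 ± 134 in *cfp-1*, 4023 ± 427 for *set-2* and 3532 ± 58.6 for *sin-3*, and its wild-type range overlapped all 3. Cytochrome c was lower in both *sin-3* libraries than in any wild-type library on both scales, at 1601 ± 0.913 against 2265 ± 247.

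**Figure D5:**
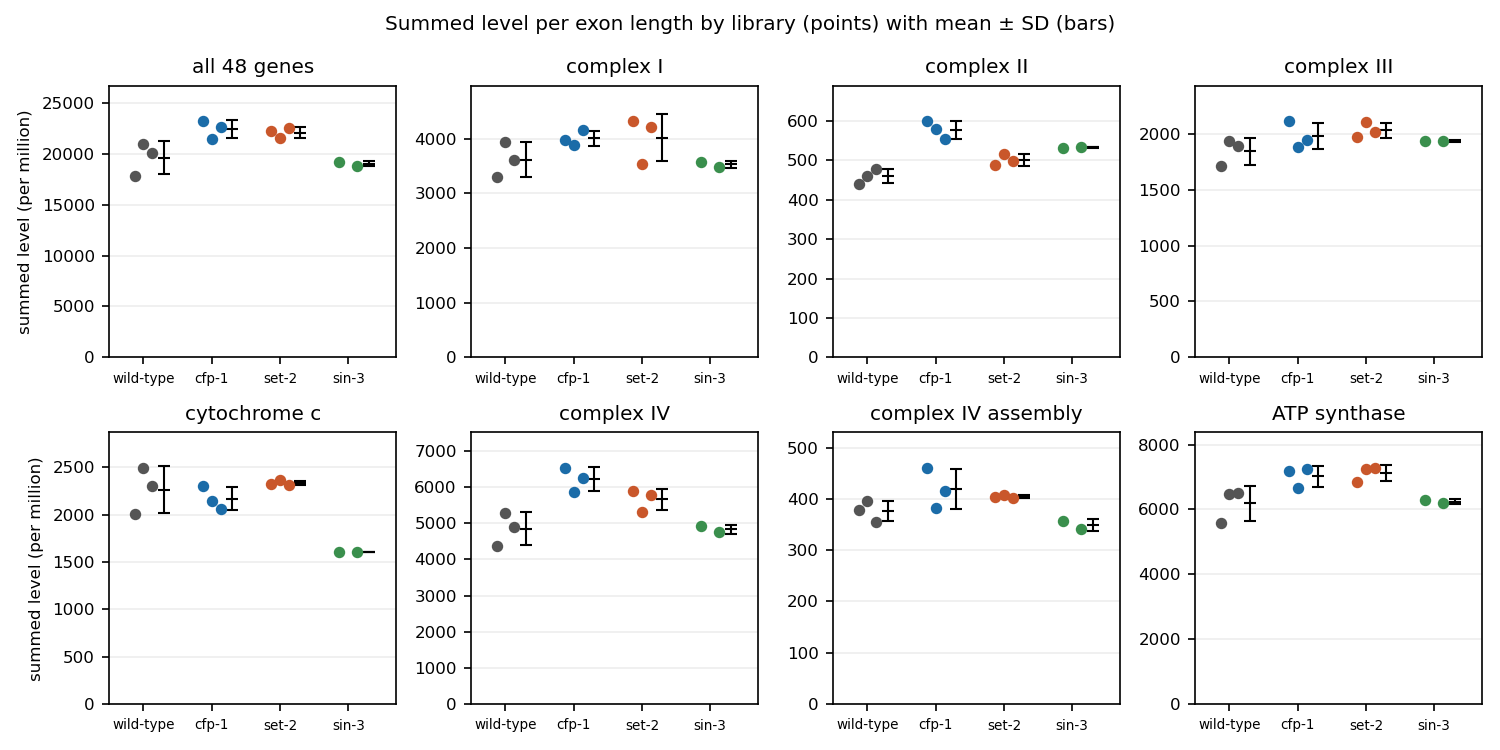
Summed level per exon length (of 1000000, y axis from 0) of all 48 genes and of each complex, with 1 point per library and bars for mean ± SD in the 4 strains. Complex IV is above wild-type in all 3 *cfp-1* libraries (5881 to 6535 against 4381 to 5282), and cytochrome c is below wild-type in both *sin-3* libraries, both also in normalized counts per kilobase, where the sums over all 48 genes overlap wild-type in every mutant.

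The mutants were also compared directly with each other. In these comparisons too, counts with a library left out are given without a share of all genes tested. Against *sin-3*, 11 of the 48 genes were higher in *cfp-1* (22.9%, beside 6.24% of all genes tested) and 1, *asb-2*, was lower (2.08%, beside 5.34%). The higher genes were *nuo-3*, *nuo-6* and *nduf-6* of complex I, cytochrome c *cyc-2.1*, *cox-6B*, *cox-6C* and *cox-7C* of complex IV, *cox-15* and *cox-19* of its assembly, and *atp-5* and *asg-1*. The median log2 fold change was 0.18, beside 0.04 over all genes tested. The *nuo-6* gene is an example, with 7564, 8200 and 8795 normalized counts in *cfp-1* and 4829 and 4497 in *sin-3*, or 0.81 ± 0.20 (adjusted p = 0.0241). With either *sin-3* library left out 0 of these 11 stayed called, without *cfp-1* replicate 3 there were 3, and without *cfp-1* replicate 1 there were 6, while *asb-2* stayed lower throughout.

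Against *sin-3*, 10 of the 48 genes were higher in *set-2* and 1, *ucr-2.3*, was lower. These shares were 20.8% and 2.08%, beside 19.9% and 20.7% of all genes tested, so the higher share was near the background and the lower one under it. The higher genes were *nuo-3*, *nuo-6*, *ucr-2.2*, *cyc-2.1*, *cox-5B*, *cox-6C*, *cox-18*, *cox-19*, *asg-1* and *atp-5*. The largest called difference was that of *nuo-3*, an accessory subunit of complex I, with 8010, 6353 and 8032 in *set-2* against 4552 and 4325 in *sin-3*, or 0.75 ± 0.16 (adjusted p = 0.00439). It was the 1 gene still called higher when either *sin-3* library was left out, and without *set-2* replicate 1 there were 4 higher and without *set-2* replicate 3 there were 6. The counting of *nuo-3*, here and against *cfp-1*, is uncertain, because 72.6% of its exon length is shared with another gene model without counts of its own. The lower call of *ucr-2.3* was lost with either *sin-3* library left out, and without *cfp-1* replicate 1 there were 3 lower genes and without *set-2* replicate 2 there were 2. The genes *nuo-3*, *cox-5B*, *cox-7C* and *cox-18* were singled out after their values were seen.

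Between *cfp-1* and *set-2*, which belong to the same complex, 4 genes were higher in *cfp-1* (8.33%, beside 12.6% of all genes tested) and 1 was lower (2.08%, beside 9.52%). The higher genes were *sdha-2*, *sdhb-1*, *cox-15* and *nuo-5*, and the lower gene was *asb-2*. The *nuo-5* call, at 0.26 ± 0.09 (adjusted p = 0.0491), held in 4 of 21 alternative analyses, and that of *sdhb-1*, at 0.41 ± 0.13 (adjusted p = 0.0427), held in 7. Without *set-2* replicate 1, 0 genes were called higher, without *cfp-1* replicate 3 it was 1, and without wild-type replicate 3, *set-2* replicate 3 or either *sin-3* library it was 2, while *asb-2* stayed lower with any library left out.

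Across the 48 genes, transcript length was related to the differences from *sin-3*. The median exon length of the 48 genes was 1006 bases, beside 1461 over all genes tested. Spearman's rho between exon length and log2 fold change across the 48 was -0.56 for *cfp-1* against *sin-3*, -0.47 for *set-2* against *sin-3* and 0.43 for *sin-3* against wild-type, and over all 11547 genes it was -0.34, -0.19 and 0.15. For *cfp-1* and *set-2* against wild-type it was -0.11 and -0.03 across the 48, and -0.137 and -0.145 over all genes tested. These are descriptions across genes that share the same libraries, and genes are not replicates. The part of transcript length in these comparisons was not tested.

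Other genes of the pathway were counted from lists by name, to be read beside the shares of all genes tested (12.7% higher and 11.4% lower for *cfp-1*, but 7.40% and 7.04% for *set-2*, whereas *sin-3* had 12.6% in each direction). Of 19 further respiratory chain genes outside the naming rule, including the complex I genes *gas-1* and *lpd-5*, the complex II anchor *mev-1* and the ubiquinone synthesis genes *coq-1* to *coq-6*, 4 rose and 1 fell in *cfp-1*, 0 were called in *set-2*, whereas 1 rose and 4 fell in *sin-3*. The methyltransferase of ubiquinone synthesis, *coq-3*, had log2 fold changes of -0.58 in *cfp-1* and -0.82 in *sin-3* (adjusted p = 0.0158 and 0.00577). In *sin-3*, *mev-1* rose by 0.56 (adjusted p = 0.0247), as did *sdha-1* of the same complex.

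A further 19 complex I genes carry names beginning with ndua-, ndub-, nduc-, ndus- or nduv-, and this list was added after the files had been opened and shares *ndua-13* with the one before. Of these, 5 rose in *cfp-1*, 0 were called in *set-2*, whereas 4 fell in *sin-3*. Over all genes tested, 12.7% were higher in *cfp-1* and 12.6% lower in *sin-3*. Against *sin-3*, 9 were higher in *cfp-1* and 11 in *set-2*, with 0 lower in either. Of all genes tested, 6.24% were higher and 5.34% lower in the first comparison, and 19.9% and 20.7% in the second. The largest difference was that of *ndua-5*, which differed from *sin-3* by 1.27 in *cfp-1* and 1.16 in *set-2* (adjusted p = 0.00342 and 0.00167). The 12 mitochondrially encoded genes showed 1 call against wild-type, COX2, the complex IV subunit that holds the copper centre, at 1.47 in *cfp-1* (adjusted p = 0.0395). Their summed CPM spread widely within a strain, from 1308 to 2193 in wild-type and from 1883 to 3218 in *cfp-1*, and how completely poly(A) selection captured them was not measured.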

How the data were processed

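RNA was extracted from frozen embryos with NucleoZol and polyadenylated RNA was made into stranded libraries. Per the labels and the methods of the study, the authors demultiplexed with bcl2fastq 2.17.1.14, aligned with STAR 2.4.1d, removed reads of mapping score under 10 with SAMtools 0.1.19, counted reads per gene with HTSeq 0.7.2 on WormBase annotation, and deposited the raw counts, not normalized. Fold changes, p-values and mean counts that the authors obtained with DESeq2 1.10.1 in R 3.2.4 were also deposited and were not used here.

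The 48 genes were found by symbol, and the genes and lists were chosen with earlier results of these data known. Positions and exon lengths came from Ensembl annotation of WBcel235, which is newer than the annotation used for counting. Protein-coding genes with a mean normalized count above 10 were tested (11547), in a single edgeR 4.0.16 quasi-likelihood fit over the 11 libraries with a mean per strain, TMM factors (0.941 to 1.10) and 7 residual degrees of freedom (R 4.3.3). Benjamini-Hochberg adjusted p under 0.05 was called. SE is the log2 fold change over the square root of its F. The biological coefficient of variation was 0.173. The code was tested on simulated data. Levels per length are normalized counts per kilobase of merged exons, scaled so that protein-coding genes sum to 1000000 in every library. Named genes were those called against wild-type, the highest pair and the lowest of each complex, the paralog sets and the mutated genes. Outside this rule, *ucr-11* and the genes of the other lists given with values, such as *ndua-5*, were picked with their values seen. Total counts were 21596949 to 35258557 per library, and intervals cover counting error only. The methods of the study call the replicates independent biological ones. The labels number replicates, and the sample titles carry another number that differs from it for some libraries and whose meaning is not given. Under neither numbering did every pair of same-numbered libraries deviate together, so no block was used. By title number *sin-3* shares no number with wild-type or *set-2*, so an effect tied to that number cannot be told apart from strain there. Alternatives were DESeq2 1.42.0, other scalings and filters, only the compared strains, a block by replicate or title number and leaving out each library. Plots were drawn with matplotlib 3.10.9 in Python 3.11.15, with tables read by pandas 2.3.3.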

Additional observations from a re-analysis of the deposited data

How the results depend on the processing

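Over the alternatives, 472 recomputed log2 fold changes of genes called against wild-type kept their direction and call, 74 lost the call and 0 reversed. Except under the block by title number, all alternatives and every library left out kept the calls of 7 of 14 genes in *cfp-1* (*sdha-1*, *ucr-2.2*, *cox-6A*, *cox-6B*, *cox-15*, *asb-2*, *atp-5*), 3 of 5 in *set-2* (*sdha-1*, *ucr-2.2*, *ucr-2.3*) and 2 of 7 in *sin-3* (*sdha-1*, *ucr-2.2*), and of *asb-2* in *cfp-1* against *set-2* and *sin-3* and of *nuo-3* in *set-2* against *sin-3*. With DESeq2, 5 genes were higher in *sin-3* against wild-type, 7 higher in *cfp-1* than in *set-2*, and 3 lower in *set-2* than in *sin-3*, also 3 with its size factors in edgeR. Upper-quartile normalization gave 6 higher in *set-2* than in wild-type, 2 in *cfp-1* than in *set-2* and 19 in *set-2* than in *sin-3*, and it shifted the all-gene median from -0.02 to 0.10 in *set-2* against wild-type and from 0.06 to 0.21 in *set-2* against *sin-3*. With only the compared strains, 7 were higher in *sin-3* against wild-type and 1 in *cfp-1* than in *set-2*. Without a filter, or with TMM over all identifiers (chosen after seeing the data), 2 were higher in *cfp-1* than in *set-2*. With the replicate block, 5 were higher in *sin-3* against wild-type, 5 in *cfp-1* than in *sin-3* and 2 lower in *set-2* than in *sin-3*, and correlations of same-numbered libraries ran from -0.55 to 0.54, those with wild-type replicates 1 and 2 being negative and the others positive. With the replicate block by title number, whose correlations ran from -0.47 to 0.44, all 12 counts were 0 with 2 residual degrees of freedom, and at most 19 genes of the whole table were called in a direction. With a library left out, higher and lower counts ran from 7 to 14 and 1 to 3 in *cfp-1*, 2 to 3 and 1 to 3 in *set-2*, and 2 to 5 and 0 to 6 in *sin-3* against wild-type. They ran from 0 to 5 and 1 to 1 in *cfp-1* against *set-2*, 0 to 13 and 1 to 1 in *cfp-1* against *sin-3*, and 1 to 10 and 0 to 3 in *set-2* against *sin-3*. Which properties of the libraries cause these shifts was not tested. With 2 or 3 libraries a strain, small differences would often be missed, so an uncalled gene is not shown to be equal between strains.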

Other observations

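Beside the respiratory chain, of 19 genes of the tricarboxylic acid cycle and pyruvate dehydrogenase, which feed electrons into the chain, 5 rose and 1 fell in *cfp-1*, 1 rose and 1 fell in *set-2*, whereas 6 rose and 1 fell in *sin-3*, to be read beside the shares of all genes tested (12.7% higher and 11.4% lower for *cfp-1*, but 7.40% and 7.04% for *set-2*, whereas *sin-3* had 12.6% in each direction). The shared dehydrogenase subunit *dld-1* rose on the log2 scale by 1.11 in *cfp-1* and 0.55 in *sin-3*, aconitase *aco-2* by 0.75 and 1.05, and malate dehydrogenase *mdh-2* by 0.60 and 0.56 (adjusted p = 5.09e-05 and 0.00495 for *dld-1*, 0.00158 and 0.000493 for *aco-2*, and 0.00824 and 0.0184 for *mdh-2*). In *sin-3* embryos, fumarase *fum-1* fell by 0.67 (adjusted p = 0.00711). Of 11 mitochondrial chaperones, proteases and stress factors, 2 rose and 2 fell in *cfp-1*, 1 fell in *set-2*, whereas 3 rose and 2 fell in *sin-3*. The chaperonin *hsp-60* fell in *cfp-1* (-0.60) and *set-2* (-0.91), with adjusted p = 0.0434 and 0.011, whereas *hsp-6*, the mitochondrial Hsp70, rose in *cfp-1* by 0.46 (adjusted p = 0.0342).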
